A study of Mus musculus with 2 samples.

Results

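Opposite-strand transcripts are RNAs read from the strand opposite to a named gene, at or next to its locus. They were followed here in medullary thymic epithelial cells with high surface MHC class II, thymic cells in which maturing T cells meet proteins otherwise made in other organs. A row of the gene table was taken as a member when its symbol was another symbol of the same table plus "os" and optional digits. This gave 128 of 23997 rows, beside 125 different sense genes, because 3 sense genes (Bcas3, Pcsk2 and Rab11fip4) had 2 members each. No expression value entered the choice.

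Polyadenylated RNA was profiled in 1 library from Aire-/- cells, whose column is headed KO, and 1 library from WT cells. Aire encodes a transcriptional regulator on which many of the tissue-restricted genes of these cells depend. Both libraries came from C57BL/6 thymus, from cells sorted out of pooled animals. The sources used here do not give the number, age or sex of the animals, or the Aire allele. With 1 library per genotype there is no replicate check on any difference, so the comparisons below set the KO-labelled library beside the WT-labelled library and not 1 genotype beside the other.

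RNAs of this kind can arise from a shared start region, in which RNA polymerase leaves in both directions, or can run through the body of the sense gene. Some are known regulators of their neighbours in the same locus, most are of unknown function, and a few carry an open reading frame and encode a small protein. FPKM, fragments scaled to transcript length and to the library total, allows levels to be compared between a transcript and its sense gene because it is a per-length unit.

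Aire RNA itself stood at 640.2 FPKM in the KO-labelled library and 220.6 FPKM in the WT-labelled library. A gene-level value covers the whole transcript and cannot isolate a deleted part, so it does not check the label, and directions are therefore given by library label. Genes of mTEC identity were well expressed in both libraries, and 16 of 17 measured ones lay within 2-fold, the exception being Aire. Markers of dendritic cells and macrophages summed to 579.4 FPKM in the KO-labelled library and 819.6 FPKM in the WT-labelled library. Most of each sum was Lyz2, at 436.4 and 675.5 FPKM in the same order, which was within 2-fold. Of the 13 measured markers 8 were lower. Of that list Cd209a was listed at 0 in the KO-labelled library. Of B cell markers 1 of 7 was lower and 1 higher, and of fibroblast and endothelial markers 3 of 9 were lower and 2 higher. The 3 lower ones were the endothelial genes Pecam1, Cdh5 and Tie1, and the 2 higher ones the fibroblast genes Dcn and Lum. The endothelial genes Kdr and Emcn, below 0.5 FPKM on average, also had their lower value in the KO-labelled library. The other 4 measured genes of the list were within 2-fold. Thymocyte markers summed to 77.9 and 64.1 FPKM in the KO-labelled and WT-labelled libraries, with 4 of 14 lower and 1 higher. The higher one, Tcf7, stood at 51.6 and 21.6 FPKM in the same order, and the direction of the sum rests on it. By any amount 10 of the 14 measured thymocyte markers were lower and 4 higher.

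The names held up against the annotation. Strands of both partners were found for 126 of the 128 pairs in GENCODE release M21 or RefSeq assembly GRCm38.p6, the build the labels call mm10, and all 126 lay on opposite strands. Msx1os and Peg3os had no strand in these tables. The spans of the member and its sense gene overlapped in 93 pairs. In 26 pairs they lay head to head without overlap, with starts a median of 198.5 bp apart, and in 7 pairs tail to tail without overlap. Annotated exons of the pair shared at least 1 base in 53 of the 118 pairs for which exons of both were found. Of these 53, 4 were head-to-head pairs without span overlap, spans being taken from RefSeq and exons from GENCODE. The library kit keeps strand, but the sources used here do not give the strand setting of the counting. Where exons overlap, fragments of the partners therefore cannot be told apart with certainty. The deposited RefSeq accessions of 118 members were all noncoding, and 10 members had at least 1 coding accession. The gene type in RefSeq GRCm38.p6 can differ from this. It is protein-coding for Toporsos, 1 of the 118, and long noncoding RNA for Slc6a19os, Grin1os and Csmd2os, which are among the 10.

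The start regions of 5 members are shown because they span the patterns described below. They run from 250 bp upstream to 50 bp downstream of the annotated start, are taken from RefSeq on GRCm38.p6, and are written 5′ to 3′ on the strand of the member, with each CG dinucleotide in capitals. Abhd11os (chr5:135013108-135013407, minus strand) was the most abundant member that was lower. Tbx3os2 (chr5:119691169-119691468, minus strand) was lower while its sense gene was not, Vax2os (chr6:83712152-83712451, minus strand) was lower together with its sense gene, and Atcayos (chr10:81194441-81194740, plus strand) had the highest ratio. Ccpg1os (chr9:72985327-72985626, minus strand) stands for the members whose window also holds the start of the sense gene.
Abhd11os: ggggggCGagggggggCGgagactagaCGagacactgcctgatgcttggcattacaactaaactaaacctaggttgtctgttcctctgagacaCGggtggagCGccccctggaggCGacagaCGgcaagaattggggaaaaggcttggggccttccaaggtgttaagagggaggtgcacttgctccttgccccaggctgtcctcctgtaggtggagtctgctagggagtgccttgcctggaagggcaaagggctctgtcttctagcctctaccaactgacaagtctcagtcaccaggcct
Tbx3os2: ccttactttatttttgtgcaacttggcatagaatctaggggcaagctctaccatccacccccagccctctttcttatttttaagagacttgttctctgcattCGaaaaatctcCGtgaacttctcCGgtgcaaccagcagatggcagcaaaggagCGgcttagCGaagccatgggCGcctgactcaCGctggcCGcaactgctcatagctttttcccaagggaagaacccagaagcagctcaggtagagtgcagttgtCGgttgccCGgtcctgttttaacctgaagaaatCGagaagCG
Vax2os: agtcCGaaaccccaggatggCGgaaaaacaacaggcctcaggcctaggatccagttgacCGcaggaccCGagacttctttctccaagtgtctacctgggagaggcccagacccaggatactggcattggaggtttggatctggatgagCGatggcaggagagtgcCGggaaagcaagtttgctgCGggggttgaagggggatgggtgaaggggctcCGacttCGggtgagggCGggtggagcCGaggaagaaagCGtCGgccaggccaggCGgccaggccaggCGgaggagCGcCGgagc
Atcayos: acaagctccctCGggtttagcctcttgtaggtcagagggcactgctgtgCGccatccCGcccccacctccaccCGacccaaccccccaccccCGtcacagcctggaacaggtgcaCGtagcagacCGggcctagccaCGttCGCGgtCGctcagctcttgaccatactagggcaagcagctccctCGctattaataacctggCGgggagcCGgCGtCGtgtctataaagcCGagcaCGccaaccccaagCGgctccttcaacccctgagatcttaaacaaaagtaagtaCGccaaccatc
Ccpg1os: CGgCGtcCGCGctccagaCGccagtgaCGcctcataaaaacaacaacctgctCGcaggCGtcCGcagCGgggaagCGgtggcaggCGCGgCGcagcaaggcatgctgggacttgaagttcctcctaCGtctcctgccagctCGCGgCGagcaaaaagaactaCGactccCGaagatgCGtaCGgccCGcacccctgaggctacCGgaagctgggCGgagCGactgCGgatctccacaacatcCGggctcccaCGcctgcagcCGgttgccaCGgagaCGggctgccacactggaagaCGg
These windows held 7, 12, 17, 20 and 33 CG dinucleotides in the order shown. The window of Atcayos contained TATAAA on at least 1 strand and the other 4 did not.

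Most opposite-strand transcripts were scarce in both libraries. Of the 128, 18 were listed at 0 in both libraries and another 68 averaged below 0.5 FPKM over the libraries. At 1 FPKM or more there were 29 in the KO-labelled library and 32 in the WT-labelled library. The remaining 42, with a mean of 0.5 FPKM or more, are called measured below. A member could pass that minimum through 1 library alone, so counts among the measured members are read only beside the same counts over all genes.

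Where the sense gene had 0.5 FPKM or more, the member stood at a median of 3.69% of the sense level in the KO-labelled library (89 pairs) and 6.37% in the WT-labelled library (109 pairs). The member exceeded its sense gene in 11 pairs in the KO-labelled library and in 15 pairs in the WT-labelled library. Those above it in both libraries at more than 10 FPKM were 3. Toporsos, whose RefSeq entry is now the small membrane protein gene Smim27, stood at 35.1 FPKM in the KO-labelled library and 39.0 FPKM in the WT-labelled library, with Topors at 11.3 and 9.76 FPKM in the same order. Rab26os stood at 29.4 FPKM in the KO-labelled library and 19.8 FPKM in the WT-labelled library, beside 10.1 and 7.40 FPKM for Rab26, a small GTPase gene. The Rab26os transcript has only 298 bp, too short for a fragment estimate here. Its FPKM therefore depends strongly on the length correction, and its level beside Rab26 is uncertain. Wdr83os, which encodes a small membrane protein, stood at 36.4 FPKM in the KO-labelled library and 23.4 FPKM in the WT-labelled library, beside 21.6 and 22.9 FPKM for Wdr83. All 3 members were within 2-fold between libraries.

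**Figure D1:**
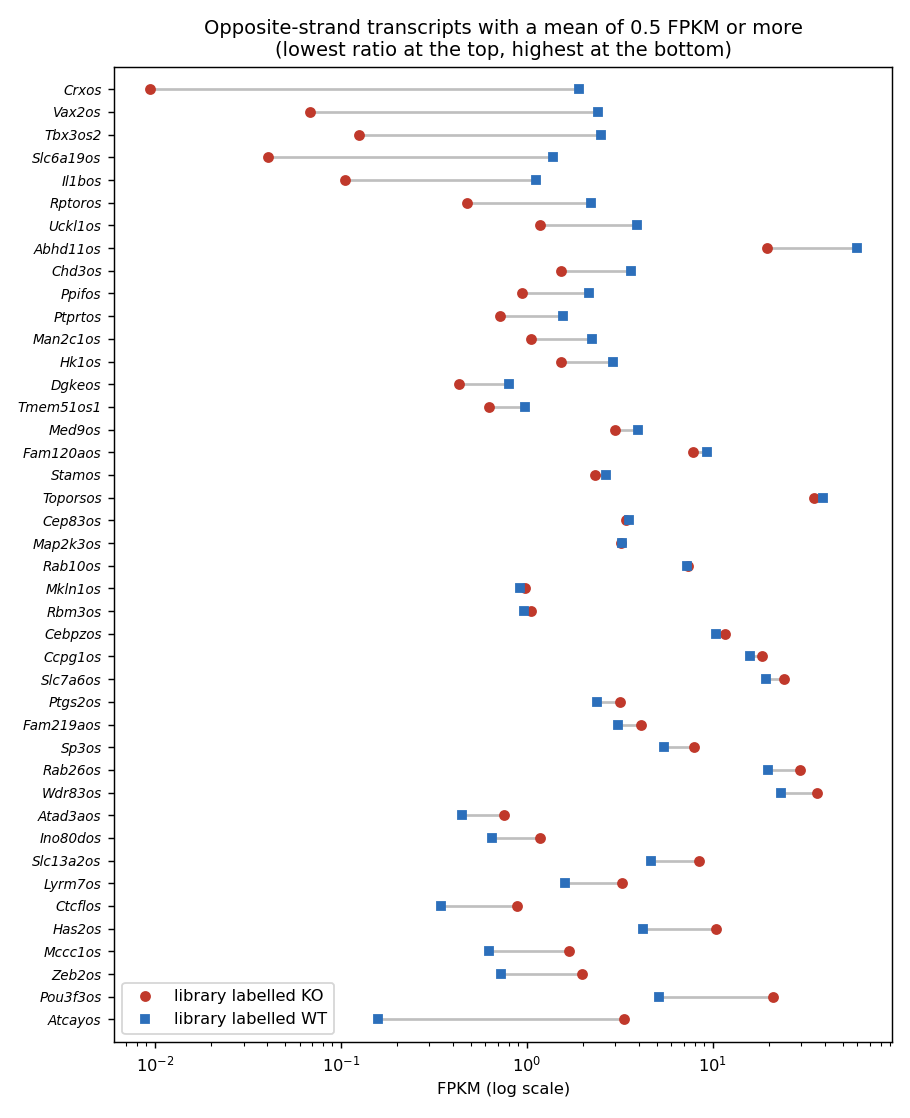
FPKM (log axis) of the 42 opposite-strand transcripts with a mean of 0.5 FPKM or more, 1 row each, in the library labelled KO (circles) and the library labelled WT (squares), 1 library per label and no error bars. Rows run from the lowest ratio at the top (Crxos, 0.00937 and 1.92 FPKM) to the highest at the bottom (Atcayos, 3.34 and 0.159 FPKM), with the most abundant transcripts mostly in between.

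Between the libraries, 12 of the 42 measured transcripts were lower and 6 were higher in the KO-labelled library by 2-fold or more, and 24 were neither. Ratios are log2 of KO over WT after adding 0.1 FPKM to each value, which understates the change of low rows, and the 2-fold limit concerns size alone, with no test behind it. The lower share was 28.6%, against 20.5% of all 15906 measured genes, and the higher share was 14.3%, against 7.09% of all measured genes. Over 42 rows these shares rest on few transcripts, and the excess of lower ones depended on the added FPKM and on the minimum. With 1 FPKM added in place of 0.1, 16.7% of the transcripts and 15.2% of all genes were lower, and at a minimum mean of 2 FPKM 13.0% and 14.3% were. The median log2 ratio was -0.01 for the transcripts, -0.02 for 99 measured sense genes and 0.05 for all measured genes. Among 667 other measured genes with noncoding RefSeq accessions only, 16.9% were lower and 19.2% higher, with a median of 0.13. The authors' deposited table gave none of the 128 members a q-value under 0.05, the smallest being 0.142, and called 70 of all genes. Those q-values compare 2 libraries.

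**Figure D2:**
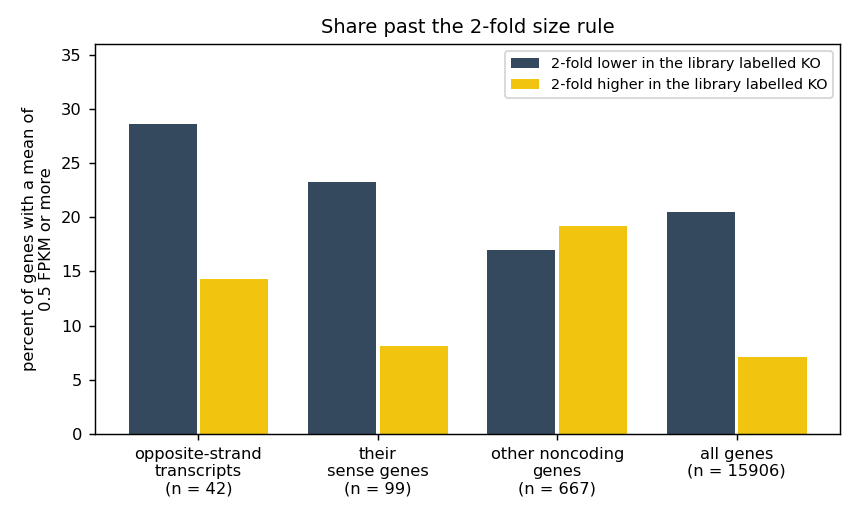
Percent of measured genes (mean of 0.5 FPKM or more) that were 2-fold lower (dark bars) or 2-fold higher (yellow bars) in the library labelled KO, with the number of genes under each group. Opposite-strand transcripts show 28.6% lower and 14.3% higher, their sense genes 23.2% and 8.08%, other noncoding genes 16.9% and 19.2%, and all genes 20.5% and 7.09%.

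The transcripts past 2-fold without their sense gene included the most abundant one in the WT-labelled library. Abhd11os (chromosome 5, 135012122 to 135013157, minus strand) stood at 19.5 FPKM in the KO-labelled library, about 454 estimated fragments, and at 59.8 FPKM in the WT-labelled library, about 1220 fragments. Its log2 ratio was -1.61 (95% counting interval -1.77 to -1.46). Abhd11, which encodes a mitochondrial hydrolase, stood at 52.1 FPKM in the KO-labelled library and 52.7 FPKM in the WT-labelled library. The antisense level was thus 37.5% of the sense level in the KO-labelled library and 114% in the WT-labelled library. The exons of the pair shared 54 bp.

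Tbx3os2 showed the widest gap between a transcript that was lower and its sense gene. Tbx3os2 (chromosome 5, 119685088 to 119691218, minus strand) stood at 0.125 FPKM in the KO-labelled library and 2.52 FPKM in the WT-labelled library, a log2 ratio of -3.54 (counting interval without added FPKM -5.56 to -3.30). Tbx3, a T-box developmental transcription factor gene, stood at 5.55 FPKM in the KO-labelled library and 3.26 FPKM in the WT-labelled library, a log2 ratio of 0.75 (0.63 to 0.89). The spans lie tail to tail, and their exons share no base.

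Another 5 transcripts were lower beside a sense gene within 2-fold. Rptoros stood at 0.477 FPKM in the KO-labelled library and 2.22 FPKM in the WT-labelled library, overlapping Rptor, the gene of the mTORC1 subunit raptor, at 14.1 and 9.64 FPKM in the same order. Uckl1os stood at 1.19 FPKM in the KO-labelled library and 3.92 FPKM in the WT-labelled library, beside 21.3 and 23.8 FPKM for the uridine-cytidine kinase-like gene Uckl1. Chd3os stood at 1.52 FPKM in the KO-labelled library and 3.63 FPKM in the WT-labelled library, beside 39.9 and 25.2 FPKM for the chromatin remodeler gene Chd3. RefSeq now names Chd3os Rnf227. Its span lies tail to tail with Chd3 without overlap, with starts 28703 bp apart. For Rptor and Chd3 the sense value was the higher one in the KO-labelled library, by log2 0.55 and 0.66, as it was for Man2c1, by 0.50. Man2c1os stood at 1.06 FPKM in the KO-labelled library and 2.24 FPKM in the WT-labelled library, with the mannosidase gene Man2c1 at 27.8 and 19.7 FPKM. Ptprtos stood at 0.720 FPKM in the KO-labelled library and 1.57 FPKM in the WT-labelled library, with the receptor phosphatase gene Ptprt at 1.23 and 1.80 FPKM. Ptprtos and Man2c1os, with log2 ratios of -1.03 and -1.02, were just past the limit, and Hk1os at -0.89 was just short of it.

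In 4 pairs the transcript and the sense gene were both lower, and the sense genes included those of an eye developmental factor and a gut transporter. Vax2os (chromosome 6, 83692804 to 83712201, minus strand) stood at 0.0685 FPKM in the KO-labelled library and 2.42 FPKM in the WT-labelled library. Vax2, a homeobox gene of the ventral eye, stood at 0.0174 and 1.01 FPKM in the same order, so both partners were near 0 in the KO-labelled library. Slc6a19os (chromosome 13, 73699955 to 73709850, plus strand) stood at 0.0405 FPKM in the KO-labelled library and 1.38 FPKM in the WT-labelled library, with the neutral amino acid transporter gene Slc6a19 at 1.14 and 3.85 FPKM. The starts of these partners lie 962 bp and 825 bp apart.

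Il1bos stood at 0.105 FPKM in the KO-labelled library and 1.12 FPKM in the WT-labelled library, and the interleukin-1 beta gene Il1b at 3.56 and 12.1 FPKM. Il1b is best known from myeloid cells, and 8 of 13 measured dendritic cell and macrophage markers were lower in the KO-labelled library, with the other 5, among them Zbtb46, Batf3 and Fcer1g, within 2-fold. Their part in this pair was not tested. Ppifos stood at 0.941 FPKM in the KO-labelled library and 2.15 FPKM in the WT-labelled library, with Ppif, the cyclophilin D gene, at 21.3 and 47.8 FPKM. Its share of the sense level was 4.42% in the KO-labelled library and 4.50% in the WT-labelled library.

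Crxos, next to the photoreceptor transcription factor gene Crx, had the lowest ratio of all, although its sense gene did not reach the minimum. Crxos stood at 0.00937 FPKM in the KO-labelled library, an estimated 0.970 fragments, and at 1.92 FPKM in the WT-labelled library. The log2 ratio of Crxos was -4.21. A counting interval from fragments summed over its isoforms ran from -11.56 to -3.71. Isoforms of unlike length made up the 2 libraries, so this interval is one of fragments and not of the FPKM ratio. Crx was listed at 0 in the KO-labelled library and stood at 0.729 FPKM in the WT-labelled library.

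The higher transcripts were led by Atcayos and by Pou3f3os, which RefSeq now names Pantr1. Atcayos (chromosome 10, 81194691 to 81208370, plus strand) stood at 3.34 FPKM in the KO-labelled library, about 171 fragments, and at 0.159 FPKM in the WT-labelled library, about 7.17 fragments. Its log2 ratio was 3.73 (counting interval without added FPKM 3.35 to 5.76), against 0.52 (0.40 to 0.66) for Atcay, which encodes the neuronal protein caytaxin. Atcay stood at 6.41 FPKM in the KO-labelled library and 4.43 FPKM in the WT-labelled library. Atcayos thus reached 52.2% of the sense level in the KO-labelled library and 3.60% in the WT-labelled library.

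Pou3f3os was higher together with its sense gene. It stood at 21.2 FPKM in the KO-labelled library and 5.14 FPKM in the WT-labelled library, a log2 ratio of 2.02 (counting interval 1.72 to 2.38). Pou3f3, a POU homeobox gene of brain and kidney development (chromosome 1, 42695768 to 42700210), stood at 5.90 FPKM in the KO-labelled library and 1.54 FPKM in the WT-labelled library, a log2 ratio of 1.87 (1.80 to 2.08). The antisense level was 358% and 334% of the sense level in the KO-labelled and WT-labelled libraries, so the balance of the pair differed little. Their spans lie head to head without overlap, with starts 943 bp apart.

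The other higher pair was Has2os and Has2, the gene of a hyaluronan synthase. Has2os stood at 10.4 FPKM in the KO-labelled library and 4.20 FPKM in the WT-labelled library, and Has2 at 36.2 and 9.98 FPKM in the same order. Mccc1os (1.70 and 0.628 FPKM in the KO-labelled and WT-labelled libraries) starts 781 bp from the start of Mccc1, a mitochondrial carboxylase gene whose value was 112.6 FPKM in the KO-labelled library and 62.7 FPKM in the WT-labelled library. Ctcflos stood at 0.882 FPKM in the KO-labelled library and 0.346 FPKM in the WT-labelled library, with the testis CTCF-like gene Ctcfl at 5.91 and 2.95 FPKM, a sense log2 ratio of 0.98 just under the limit. Zeb2os stood at 1.98 FPKM in the KO-labelled library and 0.723 FPKM in the WT-labelled library, above Zeb2, a zinc finger homeobox gene below the minimum, at 0.455 and 0.310 FPKM.

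Taking pairs in which both partners were measured, 40 in all, 6 were past 2-fold in the same direction and none in opposite directions. With a limit of 1.5-fold, 3 pairs were past it in opposite directions, namely Tbx3os2, Chd3os and Slc13a2os. In another 10 pairs the transcript alone passed, 7 lower and 3 higher. In 3 the sense gene alone passed, and in 21 neither did. The signs of the log2 ratios matched in 27 of the 40 pairs. Across these 40 pairs Spearman's rho of the log2 ratios was 0.52. The partners share libraries and locus and in part bases, and genes are not replicates, so this is a description.

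The 3 pairs in which the sense gene alone passed were Slc13a2os, Cebpzos and Slc7a6os. Slc13a2os (chromosome 11, 78394485 to 78405657, plus strand) stood at 8.47 FPKM in the KO-labelled library, about 1574 fragments, and at 4.65 FPKM in the WT-labelled library, about 757 fragments. Its log2 ratio was 0.85 (counting interval 0.74 to 0.99). Slc13a2, a sodium-dicarboxylate transporter gene of kidney and intestine, stood at 0.907 FPKM in the KO-labelled library and 7.13 FPKM in the WT-labelled library, a log2 ratio of -2.84. This pair came nearest to an exchange of levels, with the antisense at 934% of the sense level in the KO-labelled library and 65.2% in the WT-labelled library. The exons of the pair share 632 bp.

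Cebpzos and Slc7a6os carry coding RefSeq transcripts. Cebpzos stood at 11.6 FPKM in the KO-labelled library and 10.4 FPKM in the WT-labelled library, with the nucleolar protein gene Cebpz at 12.3 and 5.35 FPKM. Slc7a6os stood at 24.1 FPKM in the KO-labelled library and 19.4 FPKM in the WT-labelled library, with the amino acid transporter gene Slc7a6 at 29.7 and 12.7 FPKM. In both pairs the antisense row was above the sense gene in the WT-labelled library and below it in the KO-labelled library.

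**Figure D3:**
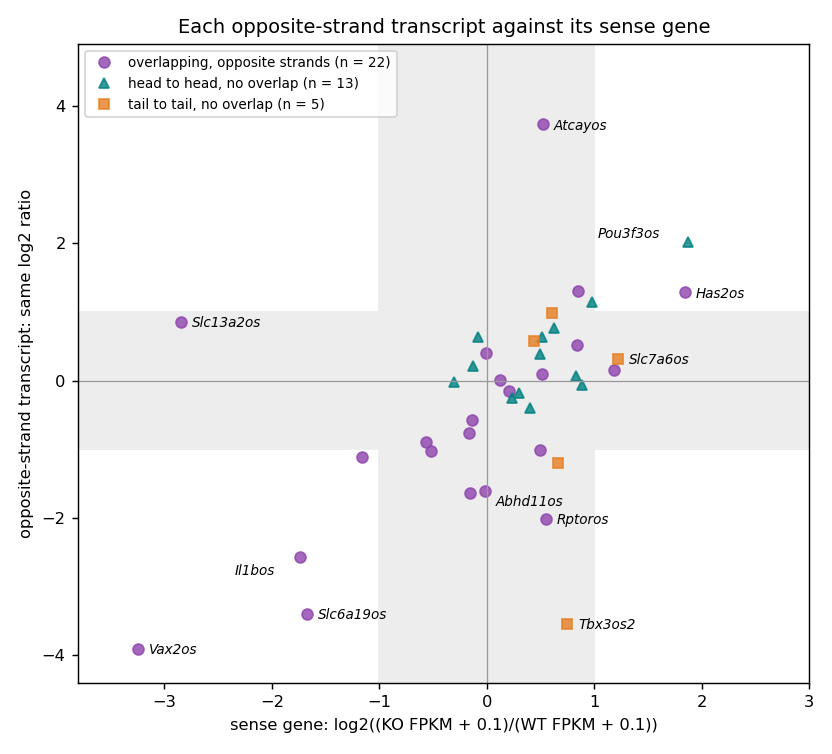
Log2 ratio of the opposite-strand transcript (vertical) against that of its sense gene (horizontal) for 40 pairs with both at a mean of 0.5 FPKM or more, by arrangement on the genome, with grey bands within 2-fold. Points in the lower left (Vax2os, Slc6a19os, Il1bos) and upper right (Pou3f3os, Has2os) were past 2-fold with the sense gene, while Tbx3os2, Abhd11os, Rptoros and Atcayos lie inside the vertical band, and no point is past 2-fold in opposite directions.

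The transcripts past 2-fold were fewer among those that start near their sense gene than among those farther away, as a count and with no test. Of 20 measured transcripts that start within 1000 bp of the sense start, 3 were lower, 2 higher and 15 neither. Of 22 that start farther away, 9 were lower, 4 higher and 9 neither. Of all measured genes 20.5% were lower and 7.09% higher, 27.6% in either direction. The nearer transcripts thus lay near that background and the farther ones above it. By arrangement, 9 of 23 measured overlapping transcripts were lower and 4 higher, against 1 of 14 lower and 2 of 14 higher for those head to head without overlap. Of the 5 tail to tail, 2 were lower. The median level was 2.07 FPKM for the 20 nearer and 2.49 FPKM for the 22 farther transcripts.

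**Figure D4:**
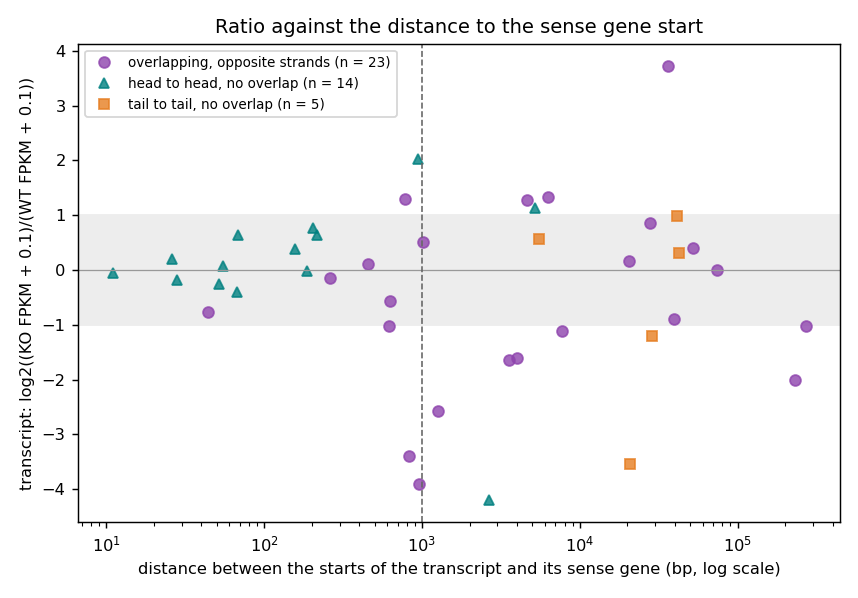
Log2 ratio of each of the 42 measured transcripts against the distance in bp between its start and that of the sense gene (log axis), by arrangement, with the grey band within 2-fold and a dashed line at 1000 bp. Transcripts that start nearest to the sense start lie within the band, and ratios beyond it appear from 615 bp onward.

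Start windows could be read for 102 members in the RefSeq table. In 14 of them the 300 bp window also held the start of the sense gene, a shared start region of the kind shown for Ccpg1os. Of these 14, 12 were measured, and none of the 12 passed 2-fold, against 27.6% of all measured genes that did in either direction. The other members with such a window, Lhx1os and Wt1os, were listed at 0 in the KO-labelled library and stood at 0.630 and 0.0685 FPKM in the WT-labelled library. The 12 comprised Ccpg1os (18.5 FPKM in the KO-labelled library and 16.0 FPKM in the WT-labelled library), Cep83os (3.40 and 3.55 FPKM in the same order), Fam120aos (7.82 and 9.33 FPKM) and Ptgs2os (3.16 and 2.39 FPKM), which lies beside the inducible cyclooxygenase gene Ptgs2. The others were Atad3aos, Dgkeos, Ino80dos, Map2k3os, Med9os, Mkln1os, Stamos and Wdr83os. The windows of 11 of the 12 held 10 or more CG dinucleotides. Of 8582 measured genes whose window held 10 or more, 809 were lower and 551 higher, a smaller part than of all measured genes. How far the shared start or the CG content goes with the ratios was not tested.

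CG dinucleotides numbered a median of 5 per window for 11 lower transcripts, 7 for 3 higher ones and 30 for 23 that were neither. Of these 23, the 12 whose window also held the sense start had a median of 32.5, and the other 11 had a median of 21. Among all measured genes with a window the median was 6 for 2335 lower genes, 18 for 789 higher genes and 21 for 8704 that were neither. Lower genes in general thus also had few CG dinucleotides, whereas the higher genes, unlike the 3 higher transcripts, had a median near that of the genes that were neither. TATAAA, searched on both strands, occurred in the windows of Atcayos, Ctcflos and Mccc1os, the 3 higher transcripts with a window, in none of the 11 lower ones and in 2 of the 23 others. Of all 27025 windows, 14.2% contained it, and among measured genes 422 of 2335 lower, 71 of 789 higher and 582 of 8704 other windows did. The order among these few transcripts was thus not that of all genes. A match is a description of these letters and not a site.

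By the symbol prefix of the sense gene, 13 members lie beside homeobox genes and 10 beside other DNA-binding factors. Crx, also a homeobox gene, has a prefix outside that list, and the homeobox gene Zfhx2 falls among the other DNA-binding factors by its prefix. The prefixes also miss DNA-binding factors such as Sp3, Ctcfl and Bach2, so neither group is complete. Among the 13, 9 were lower in the KO-labelled library by any amount, 3 were higher and Otx2os1 was listed at 0 in both libraries. With no minimum, 45.7% of all genes and 50.8% of the 128 members were lower by any amount, and 39.7% and 35.2% were higher. Only Vax2os, Pou3f3os and Zeb2os were measured. Hoxa11os, Hoxd3os1, Lhx1os, Nkx2-2os and Pax6os1 were listed at 0 in the KO-labelled library, at 0.180, 0.0697, 0.630, 0.0254 and 0.132 FPKM in the WT-labelled library. Those values are about 14.2, 1.15, 13.0, 4.99 and 8.11 fragments in the same order, so Hoxd3os1 and Nkx2-2os rest on very few. Of the 13 homeobox sense genes, 5 were measured, with 2 lower (Vax2 and Hoxd3) and 1 higher (Pou3f3). Dlx6os1, in the distal-less locus, stood at 0.104 FPKM in the KO-labelled library, about 24.8 fragments, and at 0.493 FPKM in the WT-labelled library, about 103 fragments.

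Beside the other DNA-binding factors only Tbx3os2 was measured, and by any amount 6 of the 10 members were lower, 3 higher and 1 listed at 0 in both libraries. Gata5os stood at 0.0245 FPKM in the KO-labelled library and 0.326 FPKM in the WT-labelled library, with Gata5 at 0.0589 and 0.860 FPKM. Hnf4aos was listed at 0 in the KO-labelled library and stood at 0.226 FPKM in the WT-labelled library, with Hnf4a, a nuclear receptor gene of liver and gut, at 0.159 and 2.38 FPKM. Foxl2os stood at 0.0155 FPKM in the KO-labelled library and 0.155 FPKM in the WT-labelled library, with Foxl2 at 0.0314 and 0.190 FPKM. In these 3 pairs, named after their values were seen, both partners had their lower value in the KO-labelled library. Zfp652os (0.402 and 0.121 FPKM in the KO-labelled and WT-labelled libraries), Zfp85os (0.323 and 0.271 FPKM) and Zfhx2os (0.0163 and 0 FPKM) had their higher value in the KO-labelled library. The counting intervals of Zfp652os (-0.51 to 5.08) and Zfp85os (-0.64 to 1.11) spanned both signs. Zfhx2os had no fragment estimate, so the direction of these 3 rows is uncertain.

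Of the 110 members above 0 in at least 1 library, 18 (16.4%) were listed at 0 in the KO-labelled library only, against 8.61% of all such genes, and 8 (7.27%) in the WT-labelled library only, against 1.85%. Among 1616 other noncoding genes above 0, these shares were 18.8% and 8.66%, close to those of the opposite-strand transcripts. The highest of the 18 were Lhx1os (0.630 FPKM in the WT-labelled library, about 13 fragments), Kank4os (0.575 FPKM, about 56.5 fragments) and Dio3os (0.367 FPKM, about 21.1 fragments). Dio3, the gene of the thyroid hormone-inactivating deiodinase, stood at 0.0109 FPKM in the KO-labelled library and 2.66 FPKM in the WT-labelled library. The highest of the 8 were Kcnmb4os1 (0.283 FPKM in the KO-labelled library), Tmem150cos (0.262 FPKM) and Tnk2os (0.211 FPKM). A count of 0 fragments allows up to 0.0666 FPKM in the KO-labelled library and 0.0760 FPKM in the WT-labelled library for a transcript of 1000 bp (3 counts, counting error only). The named rows lie above these limits.

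In the pairs of Igf2 and Plet1, named after their values were seen, the sense gene was lower and the antisense was below the minimum. Igf2, a growth factor gene, stood at 1.85 FPKM in the KO-labelled library and 16.8 FPKM in the WT-labelled library, and Igf2os at 0.0200 and 0.335 FPKM. Plet1, an epithelial progenitor marker gene, stood at 7.59 FPKM in the KO-labelled library and 65.6 FPKM in the WT-labelled library, and Plet1os at 0.239 and 0.733 FPKM. Over all 125 sense genes, 23 of 99 measured were lower (23.2%) and 8 higher (8.08%), close to the background of 20.5% and 7.09%.

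Long noncoding RNAs outside the naming rule differed in both directions. Of 13 measured antisense, imprinted or nuclear RNAs in a list of names, 5 were lower (38.5%) and 3 higher (23.1%). Of all measured genes 20.5% were lower and 7.09% higher. The list holds few, chosen names, so its shares do not describe such RNAs in general. H19, an imprinted RNA, stood at 1.77 FPKM in the KO-labelled library and 21.3 FPKM in the WT-labelled library. Airn, the antisense RNA of the Igf2r locus, stood at 9.81 FPKM in the KO-labelled library and 2.70 FPKM in the WT-labelled library, and Malat1 at 450.9 and 185.0 FPKM in the same order. Xist, the remaining higher one, stood at 30.1 FPKM in the KO-labelled library and 10.7 FPKM in the WT-labelled library. The sex of the pooled animals is not given, and its part in the Xist values was not tested.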

How the data were processed

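Both libraries were poly(A)-selected with a stranded kit and read as paired ends, per the labels' protocols and the series' design text. The authors deposited FPKM values per gene and per isoform, with 1 column per library, made with TopHat2 and Cuffdiff on mm10 per the submitters' processing notes. The strand setting, tool versions, annotation release and library scaling were not given in the sources used here. The deposited q-value of the authors is quoted only as theirs. In 5 rows the deposited status was HIDATA, and these were treated as missing. The FPKM values summed to 551619 in the KO-labelled library and 523609 in the WT-labelled library.

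Ratios are log2((KO FPKM + 0.1)/(WT FPKM + 0.1)), computed with Python 3.11.15, numpy 2.4.6, pandas 2.3.3 and scipy 1.17.1. A row was called at 2-fold among rows with a mean of 0.5 FPKM or more. No test was possible with 1 library per label. Spans came from RefSeq GRCm38.p6, matched by accession, symbol or synonym for all 128 members, and exons and transcript lengths from GENCODE M21. Depth was estimated from the step of 1 fragment in low values (up to 5 fragments) of single-isoform genes of 2000 bp or more, of which 79.0% in the KO-labelled library and 78.3% in the WT-labelled library lay within 0.1 of a whole multiple. Because the step was fitted to those values, the shares are no test of it. It implies about 53600000 and 47000000 fragments in the KO-labelled and WT-labelled libraries, with an effective length 160 bp under the transcript length. At 0.5 FPKM, a 1000 bp transcript would correspond to 22.5 and 19.7 fragments in the same order. Exact conditional binomial 95% intervals of the ratio use these fragments, without added FPKM, for 107 members whose transcripts all have a known length of 500 bp or more, and cover counting error only. Fragments were summed over the isoforms of a gene. Where isoforms of unlike length change their shares, the interval is thus one of fragments and not of the FPKM ratio. The script was tested on simulated data.

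Members, lists, minimum and size rule were chosen with earlier results of these data known. All measured members could be named, and those past 2-fold at a mean of 1 FPKM or more, up to 12 in each direction, and the 8 most abundant were to be given in full. Windows were grouped by calls, and the start windows to print were chosen, after the values were seen, as were the members below the minimum that are named beside their sense gene. Alternatives varied the added FPKM, minimum, fold limit, scaling, table and set of pairs.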

Additional observations from a re-analysis of the deposited data

How the results depend on the processing

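No paired analysis was possible because each label has 1 library and no replicate number, so no result has a check against replicate spread. In order, the values below are transcripts lower, transcripts higher, sense genes lower, sense genes higher and pairs past the limit in the same direction, which were 12, 6, 23, 8 and 6. They became 29, 15, 39, 8 and 21 with no minimum, 3, 2, 8, 8 and 2 at a minimum mean of 2 FPKM, and 7, 3, 14, 8 and 3 with 1 FPKM added. They were 14, 11, 27, 24 and 10 at 1.5-fold, where 3 pairs lay in opposite directions against 0 at 2-fold, and 6, 2, 11, 1 and 1 at 4-fold. Pairs without span overlap gave 3, 2, 3, 3 and 1, and pairs whose exons share no base, an alternative chosen after seeing the data, gave 6, 2, 10, 5 and 3. These last alternatives hold fewer pairs by construction. Members above their sense gene numbered 5 in the KO-labelled and 7 in the WT-labelled library without span overlap, and 6 and 9 without shared exon bases, against 11 and 15. Lower transcripts made up 28.6%, against 20.5% of all genes, but 26.4% against 25.3% with no minimum, 13.0% against 14.3% at 2 FPKM and 16.7% against 15.2% with 1 FPKM added. The median log2 ratio of the transcripts, -0.01, changed sign to 0.16 at a minimum mean of 2 FPKM and to 0.21 without span overlap, and was -0.34 with no minimum. Another 47 values, under these settings, 0.01 FPKM added, all genes centred, isoform sums, either row at 0.5 FPKM or noncoding members only (chosen after seeing the data), kept their direction and stayed within 1.5 times, or within 0.1 log2 for medians. Rows near 0 rest on few fragments, which limits their ratios.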

Other observations

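Of the 42 measured opposite-strand genes, 8 had more than 1 deposited isoform. In 5 of them (Atad3aos, Cebpzos, Crxos, Vax2os and Zeb2os) the share of an isoform differed between the libraries by 25 percentage points or more, a limit chosen after the values were seen. Rptoros and Uckl1os held 100% in 1 isoform in both libraries, and for Ino80dos the difference was 5.35 points. For Cebpzos, both of whose isoforms have coding accessions, NM_001177403 held 69.5% of the gene in the KO-labelled library and 32.9% in the WT-labelled library. For Zeb2os, NR_110572 stood at 1.74 FPKM in the KO-labelled library and 0.380 FPKM in the WT-labelled library, while NR_110571 stood at 0.237 FPKM in the KO-labelled library and 0.343 FPKM in the WT-labelled library. The higher gene value of Zeb2os was thus carried by NR_110572. All 4 isoforms of Vax2os had their lower value in the KO-labelled library. How far the authors' split of fragments between overlapping isoforms sets these shares was not tested.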
